A study of Homo sapiens with 4 samples.

Results

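The RNA interference machinery was examined in DaroR cells after knockdown of LOC730101, through the mRNA levels of AGO1, AGO2, AGO3, AGO4, DICER1, DROSHA, DGCR8, XPO5, TARBP2 and TNRC6A. These 10 genes were taken by name from the 60606 genes of the count table, and each was found once. All 10 passed the expression filter, which left 19349 genes. DaroR is a derivative of LNCaP, a human prostate cancer cell line, kept in medium with the antiandrogen darolutamide until it was resistant. The 2 siControl libraries came from cells transfected with a control siRNA and the 2 siLOC730101 libraries from cells transfected with a pool of siRNAs against the lncRNA LOC730101. Both groups share the resistant line, which is a single line, the darolutamide in its medium and the transfection with synthetic siRNA. The RNA was polyA-selected, so these values are mRNA levels and do not include mature microRNAs. The labels do not say whether the 2 libraries of a group came from separate cultures, and p-values then measure the spread between these libraries, which may be technical.

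MicroRNAs and siRNAs silence genes through shared proteins. DROSHA and its RNA-binding partner DGCR8 form the Microprocessor, which cuts hairpins out of primary microRNA transcripts in the nucleus, and XPO5 (Exportin-5) carries the hairpins to the cytoplasm. DICER1, with its partner TARBP2, cuts them to short duplexes. An Argonaute protein holds a strand of the duplex as guide, and TNRC6A (GW182) links Argonaute to the machinery that shortens the poly(A) tail and blocks translation. AGO2 is the Argonaute best known for cleaving a fully paired target, the step by which an siRNA destroys its transcript. The Argonaute step is therefore shared by the synthetic siRNAs used for the knockdown and by miR-1-3p, the microRNA that the study examined with LOC730101.

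The libraries held 39213498 to 53368158 counts. The luminal prostate markers KLK2, KLK3, FOLH1, TMPRSS2, HOXB13, KRT8 and KRT18 lay between 334.4 and 1916 CPM (counts scaled to a common library total, with TMM factors) in every library, while 7 of the 14 markers of basal, fibroblast, endothelial and leukocyte cells had 0 counts in all libraries and the highest of them, COL1A1, reached 14.7 CPM. LOC730101 (ENSG00000216775, chromosome 6 from 52664366 to 52669155 on GRCh38) had 47.4 and 50.6 CPM in siControl and 15.4 and 17.9 CPM in siLOC730101. The log2 difference was -1.56 (SE 0.12, edgeR, adjusted p = 4.34e-06).

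None of the 10 machinery genes changed past the threshold after siLOC730101. In edgeR's quasi-likelihood test, 0 of 10 genes had an adjusted p under 0.05 (Benjamini-Hochberg over all genes tested), where 0.284% of all genes tested did (0.0724% lower, 0.212% higher) and 0.671% of those with over 1000 normalized counts on average. DESeq2 also called 0 of the 10. The adjusted p-values in edgeR ranged from 0.244 for XPO5 to 0.932 for DICER1. The log2 fold changes ranged from -0.23 to 0.21 and their median was -0.031, beside -0.0021 over all genes tested. They lay on both sides of 0, with 5 genes above and 5 genes below. The 95% intervals of the 10 log2 fold changes, not adjusted for multiple tests, reached from -0.40 to 0.43. Fold changes beyond 0.760 or 1.34 therefore lay outside the interval of every gene. All 10 belong to the 7748 genes with over 1000 normalized counts on average, and the smallest change called among those was 0.40 on the log2 scale. In bulk libraries, a change in all cells and a change in some of them cannot be told apart.

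**Figure D1:**
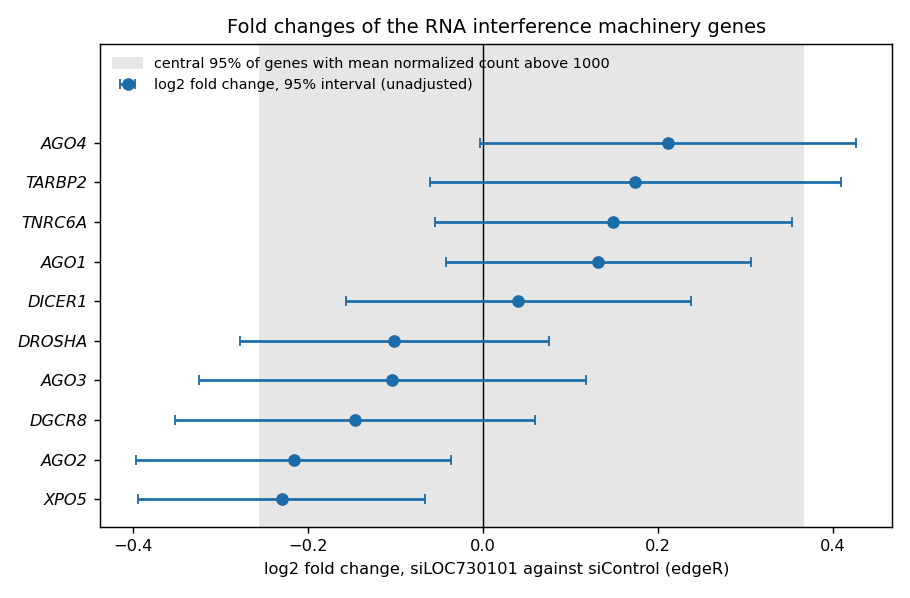
Log2 fold changes of the 10 RNA interference machinery genes, siLOC730101 against siControl, from edgeR (points) with 95% intervals not adjusted for multiple tests (bars). The grey band holds the central 95% of the values of the 7748 genes with over 1000 normalized counts on average, from -0.25 to 0.37. All 10 points lie within the band, from XPO5 at -0.23 to AGO4 at 0.21.

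The 2 libraries of a group lay close together for most of the genes, so that groups could separate without a large change. In 8 of the 10 genes the groups did not overlap, 4 higher and 4 lower in siLOC730101. This held for 41.7% of all genes tested (21.3% higher, 20.5% lower) and for 48.5% of those with over 1000 normalized counts on average. At an unadjusted p under 0.05 in edgeR there were 2 genes of the 10, XPO5 and AGO2, both lower, where 10.8% of all genes tested (4.39% lower) and 16.6% of those with over 1000 normalized counts on average had such a p. An exact permutation test of 2 against 2 libraries cannot give a two-sided p under 0.333.

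**Figure D2:**
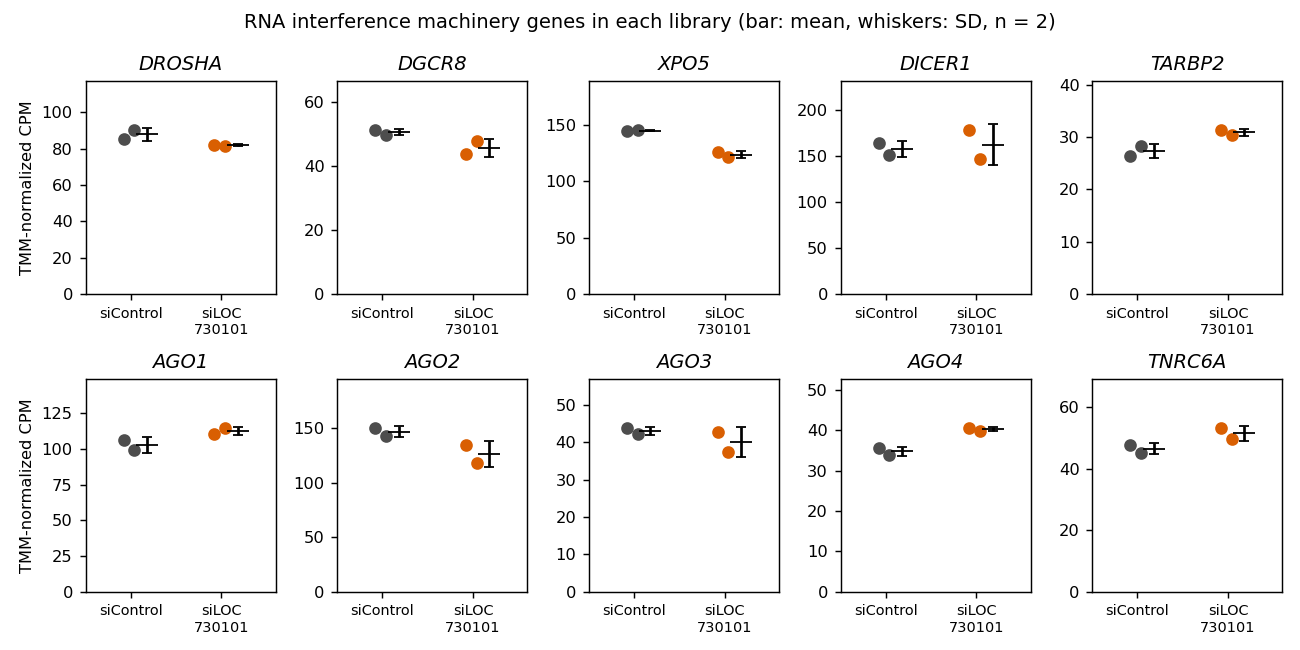
TMM-normalized CPM of each gene in each library, with the axis from 0. Points are libraries, bars are means and whiskers are SD (n = 2). The groups overlap for DICER1 and AGO3 and do not overlap for the other 8 genes.

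Nuclear processing and export were examined first. DROSHA (chromosome 5 from 31400494 to 31532196 on GRCh38, minus strand), the RNase III enzyme of the Microprocessor, had 85.4 and 90.1 CPM in siControl and 82.2 and 81.4 CPM in siLOC730101. Both siLOC730101 libraries were lower, with a log2 fold change of -0.10 (95% interval -0.28 to 0.075, edgeR, adjusted p = 0.729), and -0.060 without siControl replicate 2. DGCR8 (chromosome 22 from 20080232 to 20111877, plus strand), which binds the hairpin for DROSHA, had 51.2 and 49.9 CPM in siControl and 43.6 and 47.8 CPM in siLOC730101. The siLOC730101 libraries were again lower, but differed from each other by more than the nearest libraries of the 2 groups did. The log2 fold change of DGCR8 was -0.15 (95% interval -0.35 to 0.059, edgeR, adjusted p = 0.635), and -0.074 without siLOC730101 replicate 1.

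The DGCR8 transcript carries hairpins that the Microprocessor can itself cut. The microRNAs of these hairpins lie in exons of DGCR8 in the count table, on chromosome 22 and on the same strand. Their mature sequences are printed from RefSeq (GRCh38.p14), with the seed, bases 2 to 8, in capitals, because the seed decides which mRNAs a microRNA pairs with:
hsa-miR-3618: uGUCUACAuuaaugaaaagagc
hsa-miR-1306-5p: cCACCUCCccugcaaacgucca
hsa-miR-1306-3p: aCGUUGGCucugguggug
The seeds of these microRNAs all differ. The table lists MIR3618, of which 88 exon bases are shared with DGCR8, and MIR1306, of which 85 are, at 0 counts in every library. Their bases are also bases of DGCR8 and the counting program by default sets aside reads that fall on several genes, so these zeros say nothing about the hairpins, and reads over them are missing from DGCR8 in all libraries alike.

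XPO5 had the lowest log2 fold change of the 10 genes. It had 144.5 and 145.1 CPM in siControl and 125.4 and 121.4 CPM in siLOC730101. The siControl libraries were nearly equal and both siLOC730101 libraries were below them. The log2 fold change was -0.23 (standard error 0.077, 95% interval -0.39 to -0.067), with an unadjusted p of 0.00894 and an adjusted p of 0.244 in edgeR, so that it did not pass. Of the 7748 genes with over 1000 normalized counts on average, 3.30% had a log2 fold change as low or lower. XPO5 lies on chromosome 6 from 43522334 to 43576038 on GRCh38, 9.09 Mb from LOC730101. Of its exon bases, 348 (4.10%) are also exon bases of POLR1C on the other strand, and no strand option stands in the counting command.

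At the cytoplasmic cleavage step 0 of the genes passed the threshold in edgeR, and the groups overlapped for DICER1. DICER1 (chromosome 14 from 95086228 to 95158010 on GRCh38, minus strand), the RNase III enzyme that makes the final duplex, had 164.2 and 151.7 CPM in siControl and 178.2 and 146.6 CPM in siLOC730101. The siLOC730101 libraries lay on both sides of the siControl libraries, and the log2 fold change was 0.040 (95% interval -0.16 to 0.24, edgeR, adjusted p = 0.932). Its direction changed when siControl replicate 2 was left out (-0.013) or when siLOC730101 replicate 1 was left out (-0.099). TARBP2 (chromosome 12 from 53500921 to 53506431, plus strand), the double-stranded RNA-binding partner of DICER1, had 26.4 and 28.4 CPM in siControl and 31.3 and 30.5 CPM in siLOC730101. Both siLOC730101 libraries were higher, with a log2 fold change of 0.17 (95% interval -0.061 to 0.41, edgeR, adjusted p = 0.618). For TARBP2, 541 exon bases (13.2%) are shared with an antisense gene, which had 214 to 311 counts. PRKRA, the other double-stranded RNA-binding partner of DICER1, had a log2 fold change of 0.096 (edgeR, adjusted p = 0.837) and overlapping groups.

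The Argonaute genes differed in direction among themselves. AGO2 had 150.3 and 143.3 CPM in siControl and 134.6 and 118.1 CPM in siLOC730101. Both siLOC730101 libraries were lower, replicate 2 more so than replicate 1. The log2 fold change was -0.22 (standard error 0.084, 95% interval -0.40 to -0.037), with an unadjusted p of 0.0214 and an adjusted p of 0.332 in edgeR. Without siLOC730101 replicate 1 it was -0.31 with an adjusted p of 0.0106, and without siLOC730101 replicate 2 it was -0.13 with an adjusted p of 0.798, both in edgeR. Whether AGO2 passes the threshold thus rests on a single library. In the first of these fits 923 genes were called higher and 272 lower over the whole table, against 41 and 14 with all libraries.

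AGO1 had 106.4 and 98.9 CPM in siControl and 110.4 and 114.7 CPM in siLOC730101. Both siLOC730101 libraries were higher, with a log2 fold change of 0.13 (95% interval -0.042 to 0.31, edgeR, adjusted p = 0.607), and 0.083 without siControl replicate 2. AGO4 had 35.6 and 34.0 CPM in siControl and 40.6 and 40.0 CPM in siLOC730101. It had the highest log2 fold change of the 10 genes, 0.21 (95% interval -0.0039 to 0.43, edgeR, adjusted p = 0.475), and 11.6% of the genes with over 1000 normalized counts on average had one as high or higher. AGO3 had 43.8 and 42.3 CPM in siControl and 42.9 and 37.3 CPM in siLOC730101. The groups overlapped, and the log2 fold change was -0.10 (95% interval -0.33 to 0.12, edgeR, adjusted p = 0.794). Leaving out siLOC730101 replicate 1 gave -0.20 for AGO3, and leaving out replicate 2 of that group gave -0.0099. AGO4, AGO1 and AGO3 lie in this order on the plus strand of chromosome 1, from 35808016 to 36072500 on GRCh38, a span of 264.5 kb, and AGO3 starts 186 bases after the end of AGO1. AGO2 is far from them, on chromosome 8 (140520156 to 140635633, minus strand).

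The composition of the Argonaute mRNA pool was described from the level per kilobase, since the genes differ in length. AGO2 made up 39.6% and 39.9% of the summed level of AGO1 to AGO4 per kilobase of merged exons in siControl, and 35.6% and 32.7% in siLOC730101. AGO4 made up 20.04% and 20.2% in siControl and 23.0% and 23.7% in siLOC730101. AGO1 made up 31.7% and 31.1% in siControl and 33.0% and 35.9% in siLOC730101, so that it lay above AGO2 in siLOC730101 replicate 2 alone. AGO3 had the smallest share in every library, between 7.75% and 8.82%. The summed level itself was 23.9 and 22.7 CPM per kilobase in siControl and 23.9 and 22.8 CPM per kilobase in siLOC730101. The groups thus overlapped in the summed level, and did not overlap in any of the 4 shares. Groups did not overlap in 41.7% of all genes tested and in 48.5% of those with over 1000 normalized counts on average. The 4 shares also depend on each other, since a lower share of 1 gene raises those of the others. AGO3 separated narrowly, with 8.66% as its lower siControl share and 8.49% as its higher siLOC730101 share. These shares rest on the same counts as the fold changes above and were not tested.

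**Figure D3:**
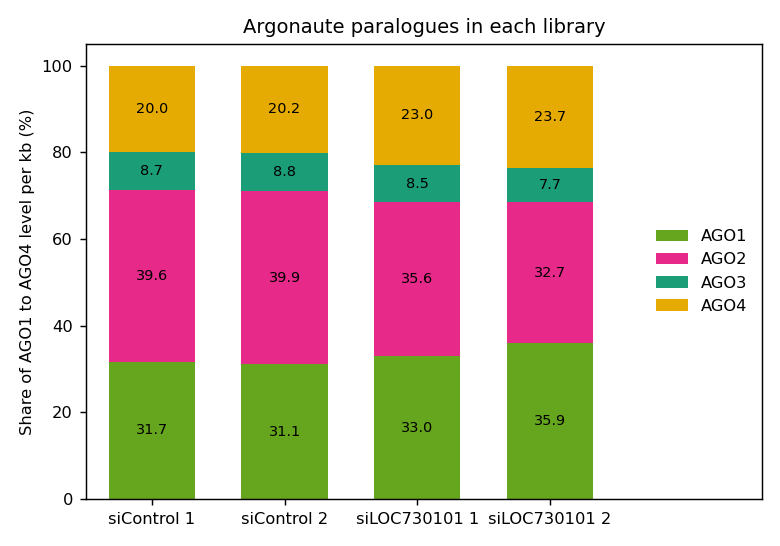
Share of each Argonaute gene in the summed level of AGO1 to AGO4, in normalized CPM per kilobase of merged exons, for each of the 4 libraries. The share of AGO2 is 39.6% and 39.9% in the siControl libraries and 35.6% and 32.7% in the siLOC730101 libraries.

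TNRC6A (chromosome 16 from 24610209 to 24827632 on GRCh38, plus strand), the scaffold that Argonaute recruits, had 47.7 and 45.2 CPM in siControl and 53.2 and 49.8 CPM in siLOC730101. Both siLOC730101 libraries were higher, with a log2 fold change of 0.15 (95% interval -0.055 to 0.35, edgeR, adjusted p = 0.622). Its paralogue TNRC6B had a log2 fold change of 0.094 (edgeR, adjusted p = 0.764) with both siLOC730101 libraries higher. The other paralogue, TNRC6C, had 50.9 and 54.4 CPM in siControl and 46.5 and 40.9 CPM in siLOC730101. TNRC6C lay lower in both siLOC730101 libraries and had a log2 fold change of -0.27 (95% interval -0.48 to -0.053, edgeR, adjusted p = 0.307). Replicate 1 of siLOC730101 lay nearer to siControl, and without it, with a single siLOC730101 library left, TNRC6C was at -0.35 in edgeR.

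The order of the levels of the machinery genes was compared per kilobase in siControl. With the merged exon length of the count table, XPO5 was highest at 17.1 ± 0.054 CPM per kilobase (SD, n = 2), followed by DROSHA at 11.3 ± 0.43 and AGO2 at 9.26 ± 0.31. AGO1 (7.31 ± 0.38), DICER1 (7.13 ± 0.40), DGCR8 (6.91 ± 0.13) and TARBP2 (6.70 ± 0.33) followed, and each of these neighbours overlapped the next in its libraries. AGO4 (4.69 ± 0.15), TNRC6A (3.58 ± 0.14) and AGO3 (2.04 ± 0.051) were lowest and did not overlap. XPO5 was also highest and AGO3 lowest in both siLOC730101 libraries, at 14.8 and 14.3 CPM per kilobase for XPO5 and 2.03 and 1.76 for AGO3.

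The middle of this order depended on the length that was used. The merged exons of DICER1 cover 22151 bases and its canonical transcript 10384, and for TARBP2 these lengths are 4090 and 1510. Counts over all merged exons were divided by either length. Reads on exons outside the canonical transcript are therefore included on both scales, which can make the second too high. Per kilobase of the canonical transcript, XPO5 (27.2 ± 0.086 CPM per kilobase) and AGO3 (2.19 ± 0.055) kept the ends of the order, while TARBP2 (18.1 ± 0.90) came second, before DROSHA (16.2 ± 0.61), DICER1 (15.2 ± 0.85), DGCR8 (11.2 ± 0.21) and AGO2 (10.1 ± 0.34). On this scale only DROSHA and DICER1 overlapped as neighbours. AGO2 was the highest of the Argonaute genes in siControl on both scales.

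**Figure D4:**
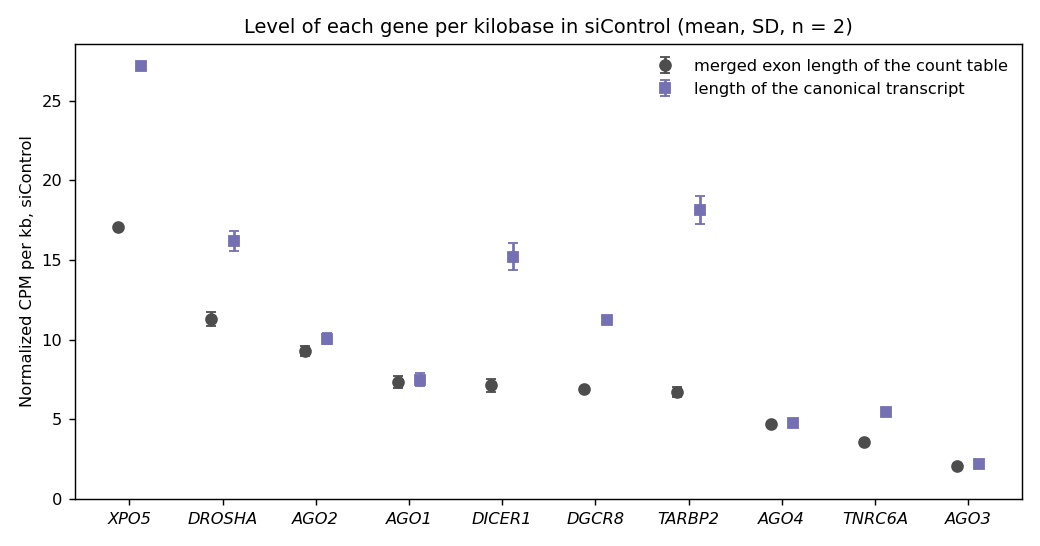
Level of each machinery gene in siControl in normalized CPM per kilobase, with the merged exon length of the count table (circles) and with the length of the canonical transcript (squares). Points are means and whiskers SD (n = 2). XPO5 is highest and AGO3 lowest with both lengths, and the ratio of the second to the first value is largest for TARBP2 and DICER1.

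The 3′ UTRs of the machinery genes were searched for seed matches of miR-1-3p, the microRNA that the title of the series ties to LOC730101. The mature sequence from RefSeq is printed with the seed in capitals:
hsa-miR-1-3p: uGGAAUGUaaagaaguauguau
The seed pairs with ACATTCC in a 7mer-m8 site, and ACATTCCA makes an 8mer site. CATTCCA is a 7mer-A1 site, which shares its first bases with the others and is counted apart from the 8mer. The annotated strand of 1 canonical transcript for each gene was searched on GRCh37. Of the 10 genes, 4 held a site and 6 did not. Over all 19032 protein-coding genes with a 3′ UTR of at least 50 bases, 20.3% held a site.

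AGO1, AGO2, AGO3 and DICER1 held the sites, and the Argonaute genes among them have very long 3′ UTRs. Their contexts are printed with the site in capitals, except for AGO2, which held a 7mer-m8 and a 7mer-A1 site in 11888 bases:
AGO1, 7mer-m8, chr1:36387460-36387487, plus strand: actggagagcctACATTCCttacacaag
AGO3, 7mer-A1, chr1:36521890-36521917, plus strand: tattttagagttCATTCCAttggggaat
AGO3, 8mer, chr1:36533593-36533620, plus strand: ttgtttcctttgACATTCCAttatctta
DICER1, 7mer-m8, chr14:95556096-95556123, minus strand: acaaactgttttACATTCCtttcatttt
AGO3 was the one gene with an 8mer, in a 3′ UTR of 16755 bases. Among 3′ UTRs within 10% of the length of each, a site was found in 81.3% for AGO1, 87.8% for AGO2, all 21 for AGO3 and 47.3% for DICER1. The 3′ UTR of the gene itself is counted in each of these sets.

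The log2 fold changes of the genes with a site were 0.13 for AGO1, -0.22 for AGO2, -0.10 for AGO3 and 0.040 for DICER1. Those of the genes without one were 0.21 for AGO4, -0.10 for DROSHA, -0.15 for DGCR8, -0.23 for XPO5, 0.17 for TARBP2 and 0.15 for TNRC6A. Genes with and without a site lay on both sides of 0, and the lowest gene, XPO5, held 0 sites in a 3′ UTR of 1534 bases. A match of letters is not evidence that miR-1-3p binds there.

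Genes that work with the machinery, and the germline (PIWI) relatives of the Argonautes with their cofactors, were described in 8 lists with 91 genes. Of these, 85 were tested. In edgeR 0 of the 85 had an adjusted p under 0.05, where 0.284% of all genes tested did. An unadjusted p under 0.05 was found for 7 of the 85, 5 higher and 2 lower, where 10.8% of all genes tested had such a p. Among genes with over 1000 normalized counts on average, these shares were 0.671% and 16.6%. DESeq2 called 1 gene, ELOB, where it called 233 genes higher and 64 lower over the whole table. Their median log2 fold change was 0.018. ELOB, a subunit of the ubiquitin ligases that include the one degrading Argonaute in target-directed microRNA decay and of other Elongin complexes, had 155.9 and 174.1 CPM in siControl and 186.7 and 224.8 CPM in siLOC730101. Its log2 fold change was 0.32 (SE 0.093, edgeR adjusted p = 0.170, DESeq2 adjusted p = 0.0438). Replicate 1 of siLOC730101 lay nearer to siControl, and without it, with a single siLOC730101 library left, ELOB was at 0.46 in edgeR. ZSWIM8, the substrate receptor of that ligase, had a log2 fold change of 0.12 (edgeR, adjusted p = 0.709), and P4HA1, a prolyl hydroxylase subunit, was the lowest of this list at -0.15 (edgeR, adjusted p = 0.582).

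Among 15 Microprocessor cofactors, 0 were called in edgeR and the median log2 fold change was -0.034. METTL3, which methylates primary microRNAs among many RNAs, was lowest at -0.23 (edgeR, adjusted p = 0.398), and ERH, a small partner of DGCR8, was highest at 0.20 (edgeR, adjusted p = 0.448). ERH had 94.8 and 108.6 CPM in siControl and 109.6 and 124.6 CPM in siLOC730101. Leaving out the nearer of the siLOC730101 libraries, replicate 1, left a single library in that group and put ERH at 0.30 in edgeR. Of the 4 export and import factors, RAN, whose GTP-bound form XPO5 needs to carry its cargo, had a log2 fold change of 0.13 (edgeR, adjusted p = 0.561). XPO1, another export receptor, had one of -0.14 (edgeR, adjusted p = 0.563). The differences between these genes and XPO5 were not tested.

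The 10 chaperones of the HSP90 and HSP70 machinery, which opens Argonaute for loading, had a median log2 fold change of 0.085 and 0 calls in edgeR. The median was 0.012 over all genes tested with a mean normalized count above 50. Of the chaperones, 8 lay above 0, where 9602 of the 19349 genes tested did. The chaperones were not tested as a set. AHSA1, which stimulates the ATPase of HSP90, was highest at 0.22 (edgeR, adjusted p = 0.330), and HSPA4 was lowest at -0.032 (edgeR, adjusted p = 0.928). AHSA1 had 105.0 and 103.6 CPM in siControl and 113.1 and 130.6 CPM in siLOC730101. Leaving out the nearer of the siLOC730101 libraries, replicate 1, left a single library in that group and put AHSA1 at 0.33 in edgeR. Among the 31 TNRC6 paralogues and silencing effectors, among them the CCR4-NOT deadenylase, the PAN2-PAN3 deadenylase and the decapping proteins, 0 were called in edgeR and the median was 0.018. Of these, 30 had a mean normalized count above 50. Among those 30, EIF4E2, a cap-binding repressor of translation, was highest at 0.19 (edgeR, adjusted p = 0.448), and TNRC6C was lowest.

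The other lists held 0 calls in edgeR as well. Of 7 Dicer partners and regulators of precursors, 5 were tested, from TENT2 at -0.10 (edgeR, adjusted p = 0.805) to DIS3L2 at 0.22 (edgeR, adjusted p = 0.600). LIN28B, which blocks the maturation of let-7, was listed at 0 counts in all libraries, and LIN28A had 8 counts in siControl replicate 1 and 0 in the others. The 7 genes that remove the passenger strand or bind the silencing complex ranged from TSN at -0.13 (edgeR, adjusted p = 0.646) to FXR2 at 0.066 (edgeR, adjusted p = 0.861).

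**Figure D5:**
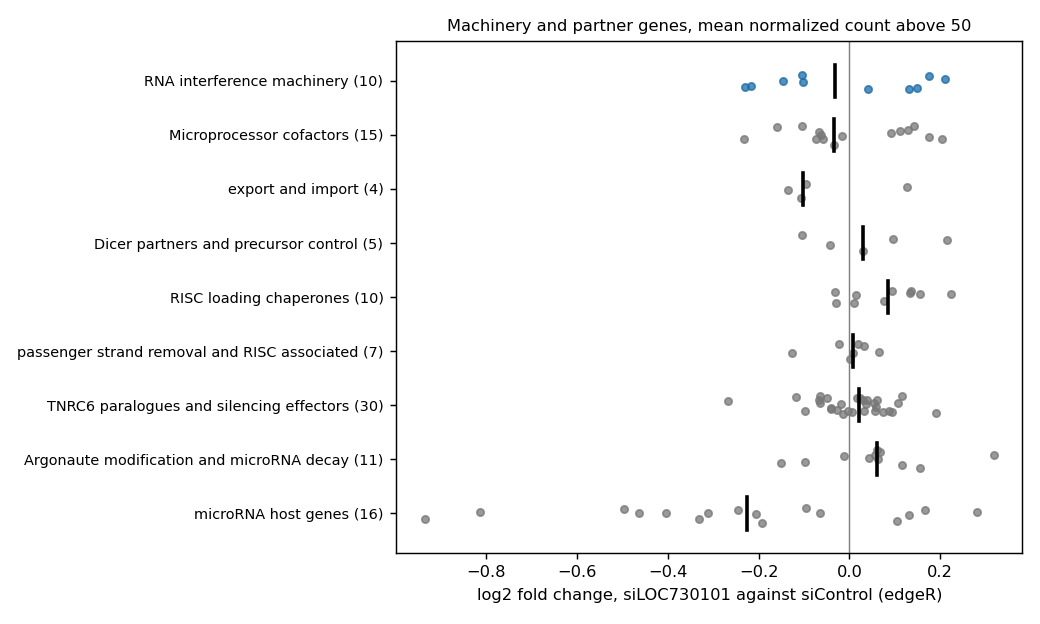
Log2 fold changes, siLOC730101 against siControl in edgeR, of the 10 machinery genes (blue) and of partner genes by list (grey). Genes have a mean normalized count above 50, and the list of PIWI genes and piRNA cofactors is not shown. Each point is a gene, black bars are medians, and the number of genes is given beside each list. The microRNA host genes have the widest range and a median of -0.23, and 0 of the genes shown had an adjusted p under 0.05.

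Host genes of microRNAs are transcribed into the RNAs from which the Microprocessor cuts hairpins, and many of them also code for proteins. The table lists 84 genes that carry the name of a microRNA host gene, of which 31 were tested and 53 were too weakly expressed. They were taken by names that begin with MIR and end with HG, so host genes under other names are not included. In edgeR 0 of the 31 had an adjusted p under 0.05, and 3 had an unadjusted p under 0.05, all lower, where 10.8% of all genes tested had such a p (4.39% lower). DESeq2 called 0 of the 31. The log2 fold change was below 0 in 20 and above 0 in 11, and the median was -0.19, beside -0.0021 over all genes tested. Their median normalized count was 50.4, far below that of the machinery genes, of which the lowest had 1310. The 3 lower genes, named after their values were seen, were MIR34AHG, MIR99AHG and MIR600HG. MIR34AHG had 7.58 and 8.12 CPM in siControl and 4.75 and 4.19 CPM in siLOC730101, a log2 fold change of -0.81 (95% interval -1.26 to -0.36, edgeR, adjusted p = 0.131). MIR99AHG had 160.4 and 155.5 CPM in siControl and 145.2 and 109.5 CPM in siLOC730101, a log2 fold change of -0.31 (edgeR, adjusted p = 0.258), and MIR600HG had a log2 fold change of -0.46 (edgeR, adjusted p = 0.358). Replicate 1 of siLOC730101 lay nearer to siControl than replicate 2 for both MIR99AHG and MIR34AHG. Leaving it out left a single siLOC730101 library, with MIR99AHG at -0.52 and MIR34AHG at -0.90 in edgeR. The groups did not overlap in 5 host genes that were higher and 9 that were lower, where 41.7% of all genes tested did not overlap. With a mean normalized count above 50, MIRLET7A1HG was the lowest host gene, at -0.94 (edgeR, adjusted p = 0.522) with 26 to 83 counts, and MIR1915HG was the highest, at 0.28 (edgeR, adjusted p = 0.883).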

How the data were processed

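RNA of 4 libraries was analysed, with groups and replicate numbers taken from the sample titles. The deposited values are counts, and per the file headers the authors counted reads on genes with featureCounts 2.0.1 and gencode version 41 on hg38, with no paired-end or strand option and no normalization. The methods of the paper name Trim-galore, STAR and hg19 with an earlier gencode release, and the labels list BWA. Among genes with 1 to 20 counts, 66.0% to 70.1% were even, as when both mates of a pair are counted, so that halved counts were tried as an alternative.

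Counts were filtered with filterByExpr, scaled by TMM and tested with edgeR 4.0.16 in R 4.3.3 (glmQLFit, legacy method, no robust moderation, condition as the only term). Each log2 fold change compares siLOC730101 with siControl, and its SE and 95% interval were derived from the F statistic. The mean normalized count is the mean CPM at the average library total. DESeq2 1.42.0, other scalings, filters, quasi-likelihood settings, a replicate block and leaving out each library were alternatives. Transcript lengths and 3′ UTRs came from the Ensembl canonical transcripts of a GRCh37 annotation, joined by gene name, and these coordinates were not converted.

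The genes and lists were chosen with earlier results of these data known. Named were the 10 genes, LOC730101, TNRC6B, TNRC6C, PRKRA, partner or host genes with an adjusted p under 0.05, and the highest and lowest gene of each partner list with a mean normalized count above 50. ZSWIM8, MIR34AHG, MIR99AHG, MIR600HG, LIN28A, LIN28B and the PIWI genes were named after their values were seen. Further luminal marker genes are not reported here.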

Additional observations from a re-analysis of the deposited data

How the results depend on the processing

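The log2 fold changes of the 10 machinery genes were recomputed under 13 alternatives, and 127 of these 130 values kept their direction and their side of the threshold. AGO2 passed without siLOC730101 replicate 1 (adjusted p = 0.0106, edgeR), and DICER1 turned to -0.013 without siControl replicate 2 and to -0.099 without siLOC730101 replicate 1, within -0.099 to 0.17 over the libraries left out; the cause was not tested. The number of machinery genes called was 0 to 1 when each library was left out, and 0 in the other alternatives. The number of partner and host genes called was 0 to 9 when each library was left out (9 without siLOC730101 replicate 1: AHSA1, CDC37, ELOB, ERH, MIR29B2CHG, MIR34AHG, MIR99AHG, NUP153 and TNRC6C), 3 with no filter beyond 1 count and 3 with the replicate block (ELOB, MIR34AHG and MIR99AHG in both), 1 with DESeq2 and 0 in the rest.

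Over the whole table, 41 genes were higher and 14 lower. With a term for the replicate number these counts were 485 and 167. The same-numbered libraries deviated from their group means with a correlation of 0.029. The labels do not say whether these libraries were prepared together, and a single correlation over genes cannot settle it. The block called 0 of the 10 machinery genes. The counts were 324 and 113 with no filter beyond 1 count, 233 and 64 with DESeq2, 113 and 35 with halved counts, 87 and 24 with the legacy method off, and 35 lower with library size only. They ranged from 77 to 923 and from 26 to 272 when each library was left out, highest without siLOC730101 replicate 1. LOC730101 stayed between -1.67 and -1.44. With 1 library left in a group, its spread is assumed equal to that of the other group. Every setting that called a partner or host gene also called more than 41 genes higher and 14 lower over the whole table. Whether the share called was higher among partner and host genes than among all genes was not tested.

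The level per kilobase of XPO5 was 17.3 with library size only. With the canonical transcript length, an alternative chosen after seeing the data, it was 27.2 for XPO5, 18.1 for TARBP2, 16.2 for DROSHA, 15.2 for DICER1, 11.2 for DGCR8, 10.1 for AGO2, 5.47 for TNRC6A and 2.19 for AGO3.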

Other observations

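The germline relatives of the Argonautes, which act with piRNAs, had few or no counts in these libraries. PIWIL1 and PIWIL3 were listed at 0 counts in all 4 libraries, PIWIL2 had 0 to 10 counts and PIWIL4 had 0 to 6 counts, and none of these 4 genes passed the expression filter. Of the piRNA cofactors, MOV10L1 had 11.3 and 10.3 CPM in siControl and 10.7 and 9.75 CPM in siLOC730101, a log2 fold change of -0.086 (edgeR, adjusted p = 0.916). HENMT1, the methyltransferase that modifies the end of piRNAs, had 6 to 40 counts and a log2 fold change of -0.96 (edgeR, adjusted p = 0.785). Neither of the tested genes passed the threshold, and MOV10L1, the more strongly counted of them, differed between the groups by less than the libraries within siControl did.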
